A study of Mus musculus with 2 samples.

Results

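The T-cell receptor beta locus of the mouse (Trb) was examined in DNase-seq data of the thymus. Its members were all genes of the GENCODE M21 annotation (mm10) with a T-cell receptor gene type and a symbol starting with Trb. There were 53 of them among 55450 annotated genes: 35 variable (V) segments, of which 22 are annotated as genes and 13 as pseudogenes, 2 diversity (D), 14 joining (J) and 2 constant (C) segments. They lie between positions 40891229 and 41558452 of chromosome 6.

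The libraries came from thymus tissue of 2 female B6CASTF1/J mice, 36 days old and untreated as far as the labels say, with 1 library per mouse. These animals are first-generation hybrids of C57BL/6J and CAST/EiJ, so every site has an allele of each strain, and the deposited files do not separate them. The labels number the mice as biological replicates 1 and 2 of 1 group, so no genotype or treatment was compared and no test between conditions was possible. DNase-seq finds open chromatin by the cuts that DNase I makes in it, and the files give peaks of cutting, regions in which the cut rate was significant, and footprints, which are short stretches of few cuts inside such regions.

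A beta chain gene is assembled in developing T cells by V(D)J recombination. The RAG1 and RAG2 proteins cut at recombination signals beside the segments, a D segment is joined to a J segment first, and a V segment is then joined to the DJ unit. Joining deletes the DNA between the chosen segments, or inverts it in the case of Trbv31, which lies in the opposite orientation. A promoter just before Trbd1 and an enhancer between Trbc2 and Trbv31 are known to open the D, J and C part before joining. The enhancer acts in cells of the T lineage, while the trypsinogen genes that sit between the V segments and Trbd1 are active in the pancreas.

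The tissue label was checked on gene starts. Of 10 thymocyte genes, 10 had a peak within 1 kb of the start in both mice, among them Cd4, Cd8a, Ptcra and Rag1. Of all protein-coding genes 51.7% had one. Markers of other cells were rarer: 1 of 3 for B cells, 0 of 4 for myeloid cells, 1 of 4 for thymic epithelium, 2 of 4 for stroma and endothelium and 0 of 4 for exocrine pancreas. Cd79a and Ms4a1 had no peak at their starts in either mouse, nor did Foxn1 and Psmb11. Ebf1 of the B-cell list (3.92 and 8.61) and Epcam of the epithelial list (0.689 and 1.54) had one in both. In a whole tissue, fewer cells with an open site and less cutting per cell cannot be told apart, and neither can the loss of DNA by recombination, which these files do not measure.

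Accessible sites at the Trb segments were concentrated in the D, J and C part, at Trbv31 and at some of the other V genes. A peak of the shorter, more stringent list of the library lay within 1 kb of 24 segments in mouse 1 and of 29 in mouse 2. Both mice had one at 22 segments, which is 41.5%, and neither had one at 22. Among all 18401 annotated genes of at most 1000 bp, the same windows held a peak in 7.83% in mouse 1, 9.68% in mouse 2 and 7.22% in both. For annotated genes of any length the share in both mice was 33.9%.

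Peak height is given as the signal that the authors deposited. Its scale has no name in the sources used here, and that it was set to the depth of each library is inferred from its values, so ratios between the mice rest on a scaling that could not be checked. All values of a library are whole multiples of 1 step, and the weakest and strongest peaks of the locus and 50 kb on either side are 53 and 2829 steps high in mouse 1 and 95 and 2958 in mouse 2. If 1 step is 1 read, counting error is small for the strong peaks.

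Counting only peaks that overlap the segment itself left 9 segments in both mice, against 3.02% of all short genes. The longer, more permissive list gave 34 segments in both mice (9.58% of all short genes). A region of significant cutting was found within 1 kb of 35 segments in both mice, against 10.5%, and a footprint within 1 kb of 31, against 8.66%. Windows of neighbouring D and J segments overlap, so that 1 peak can count for several of them, and the J counts in particular do not stand for separate sites.

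**Figure D1:**
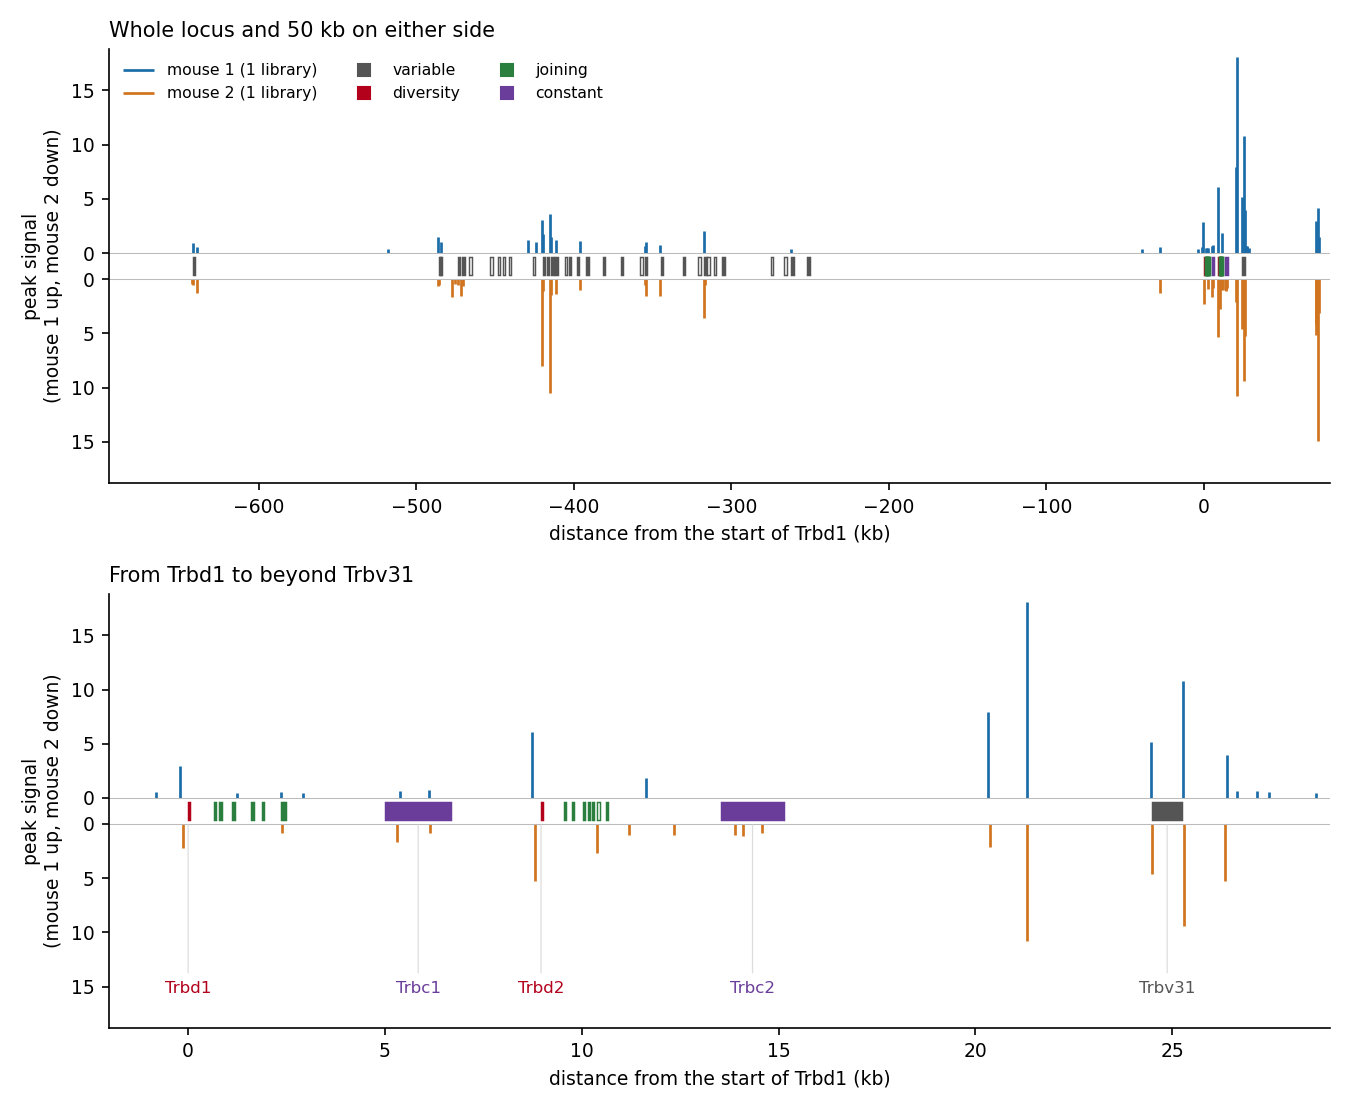
Peaks of the shorter list along the Trb locus, by distance from the start of Trbd1 in kb. Each line is 1 peak and its length is the deposited signal, upward for mouse 1 and downward for mouse 2. Boxes are segments, open boxes pseudogenes. The upper panel shows the V array on the left and the stretch with few peaks before Trbd1, and the lower panel the strong pair of peaks between Trbc2 and Trbv31, which reach 18.1 in mouse 1 and 10.8 in mouse 2.

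Along the chromosome the density of peaks differed by more than an order of magnitude between parts of the locus. The stretch from 1 kb before Trbd1 to 1 kb after Trbc2 had 5.25 peaks per 10 kb in mouse 1 and 6.41 in mouse 2, and regions of significant cutting covered 26.0% and 29.5% of its bases. The V array from Trbv2 to Trbv30 had 0.634 and 0.761 peaks per 10 kb, and the whole genome 0.218 and 0.268. The 249 kb between Trbv30 and Trbd1, which hold trypsinogen genes, had 0.120 and 0.0401 peaks per 10 kb, less than the genome in both mice. These densities rest on 3 peaks in mouse 1 and 1 in mouse 2. Only 60.6% of the 32-base words of that stretch occur at a single place in the reference, against 94.9% in the D, J and C part. That limits where reads can be placed, and the densities were not corrected for it, so a true deficit of peaks was not shown.

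Among the V segments, peaks of the shorter list within 1 kb lay at genes alone. Of the 22 V genes, 11 in mouse 1 and 12 in mouse 2 had a peak within 1 kb, and 10 had one in both: Trbv1, Trbv2, Trbv3, Trbv12-1, Trbv12-2, Trbv13-2, Trbv19, Trbv20, Trbv23 and Trbv31. Of the 13 V pseudogenes, 0 had a peak of the shorter list in either mouse. The share of all short genes with a peak in both mice, 7.22%, would be about 1 of 13, so the count of the pseudogenes is near the background. With a flank of 5 kb 3 pseudogenes had a peak in both mice. With the longer list 14 of the 22 V genes and 2 of the 13 pseudogenes, Trbv10 and Trbv24, had a peak in both mice. At Trbv3 the peaks of the mice did not overlap, so 9 V genes had a peak shared by overlap. Unique sequence was similar: the windows of the 10 V segments with peaks had a median of 97.5% unique words (range 87.9 to 100), those of the other 25 a median of 95.8% (75.4 to 100).

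By the mean of the mice the strongest V segment was Trbv31, the most downstream one, with a highest signal of 10.8 in mouse 1 and 9.39 in mouse 2. Its peak lies over the annotated start, with its centre 18 bp before it. A further shared peak lies at its recombination signal, at the other end of the segment, with signals of 5.16 and 4.63. Both sites were thus close in height in the mice. The bases of the start peak are shown because its mean signal is the highest at any segment, read along the strand of the gene, with capitals for bases inside footprints of both mice (57 of 220 bases).
Trbv31 start (chr6:41558361-41558580, minus strand): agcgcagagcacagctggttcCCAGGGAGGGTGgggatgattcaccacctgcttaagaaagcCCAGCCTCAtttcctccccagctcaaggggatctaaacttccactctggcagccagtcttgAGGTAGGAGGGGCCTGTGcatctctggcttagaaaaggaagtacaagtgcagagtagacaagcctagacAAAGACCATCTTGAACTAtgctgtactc

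Trbv12-2 and Trbv12-1, close relatives in the middle of the array, had the next strongest V peaks by the mean of the mice, and in mouse 2 Trbv12-2 was above Trbv31. The highest signal at Trbv12-2 was 3.64 in mouse 1 and 10.5 in mouse 2, and at Trbv12-1 it was 3.04 and 7.99. Mouse 2 was higher at both, and neither peak is at the segment start: their centres lie 460 bp and 479 bp before it. Each of these genes had a weaker shared peak at the start itself, with signals of 1.45 and 1.42 at Trbv12-2 and 1.72 and 1.08 at Trbv12-1. The log2 ratios of mouse 2 to mouse 1 were 1.52 and 1.39 at the upstream peaks, and -0.03 and -0.68 at the starts. Mouse 2 thus had the higher signal at the upstream peaks alone. The median ratio over all 46907 shared pairs of the genome was 0.75. Lower ratios than at the upstream peaks were found in 84.3% and 78.6% of those pairs. Lower ratios than at the starts were found in 17.5% and 3.71%.

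The upstream peaks of the Trbv12 genes are shown because they are the only 2 of the 23 shared peaks of the locus with an exact match of the CTCF core AGNNGGCGC. In both the match lies within footprints of both mice at all 9 bases. Sites that differ from these letters were not searched for, so other CTCF sites in the locus can have been missed. CTCF is a protein that anchors chromatin loops. Capitals again mark bases in footprints of both mice. The third line gives the stretch of the pseudogene Trbv12-3 that matches best.
Trbv12-1 upstream (chr6:41112961-41113180, plus strand): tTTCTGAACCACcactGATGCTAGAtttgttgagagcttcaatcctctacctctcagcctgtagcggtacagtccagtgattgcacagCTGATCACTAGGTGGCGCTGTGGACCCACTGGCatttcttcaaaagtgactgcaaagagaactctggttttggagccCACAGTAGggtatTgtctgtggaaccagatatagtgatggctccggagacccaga
Trbv12-2 upstream (chr6:41118281-41118500, plus strand): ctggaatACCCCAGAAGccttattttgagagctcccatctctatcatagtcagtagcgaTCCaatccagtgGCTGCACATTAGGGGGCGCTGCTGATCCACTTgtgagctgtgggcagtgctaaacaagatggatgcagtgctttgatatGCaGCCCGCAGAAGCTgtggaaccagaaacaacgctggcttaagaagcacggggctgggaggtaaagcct
Trbv12-3 best match (chr6:41127153-41127188, plus strand): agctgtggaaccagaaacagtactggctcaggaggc
In a local alignment the Trbv12-2 peak matched the Trbv12-1 sequence at 63 of 89 columns (70.8%), and these 89 bases lay entirely in regions of significant cutting in both mice. At Trbv12-3 the best match was 36 bases long with 83.3% identity, did not reach the CTCF core, and overlapped no cutting region and no peak in either mouse.

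Trbv23 followed, with a highest signal of 2.08 in mouse 1 and 3.63 in mouse 2 in a peak whose centre is 2 bp before its start. It is shown because the CREB/ATF site in it, the sequence TGACNTCA on the reverse strand, touches footprints of both mice, with 8 of its 8 bases in mouse 1 and 2 in mouse 2. A CREB/ATF element is known from Trbv promoters.
Trbv23 start (chr6:41215961-41216180, plus strand): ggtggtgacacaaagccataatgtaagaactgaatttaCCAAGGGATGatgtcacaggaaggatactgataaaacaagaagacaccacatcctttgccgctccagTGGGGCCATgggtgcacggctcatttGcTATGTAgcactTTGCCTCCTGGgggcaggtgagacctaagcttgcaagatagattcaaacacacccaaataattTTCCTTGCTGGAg

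The remaining V genes with peaks in both mice were weaker. The highest signals were 1.23 and 1.37 at Trbv13-2, 1.03 and 1.52 at Trbv19, and 0.766 and 1.52 at Trbv20, mouse 1 first. At Trbv2 they were 1.48 and 0.665, and at Trbv1, the most upstream segment of the locus, 0.913 and 0.514. The first 3 genes were thus higher in mouse 2, and Trbv2 and Trbv1 higher in mouse 1. At Trbv3 mouse 1 had a peak of 1.03 on the segment, while the shorter-list peak that mouse 2 had in the window (0.569) lies on the neighbouring Trbv2. On the shorter list Trbv4 (0.534) and Trbv5 (1.57) had a peak in mouse 2 alone and Trbv29 (0.415) in mouse 1 alone. In the windows of Trbv5 and Trbv29 the cutting of the other mouse was significant, with peaks on the longer list alone (highest 0.874 and 0.217). At Trbv29 this was a different site: the mouse 2 peak is centred 424 bp past the segment. Over the mouse 1 peak at Trbv29, mouse 2 had no cutting region. At Trbv4 mouse 1 had no significant cutting.

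At the other end of the range, 4 of the 22 V genes touched no region of significant cutting within 1 kb in either mouse. In order of position the first 3 were Trbv13-3, Trbv17 and Trbv21. The window of Trbv13-3 is 95.8% unique and that of Trbv17 96.5%, while Trbv21 with 75.4% is the least unique of all members. Trbv13-3 had no cutting although Trbv13-2, a close relative upstream of it, had a peak in both mice.

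**Figure D2:**
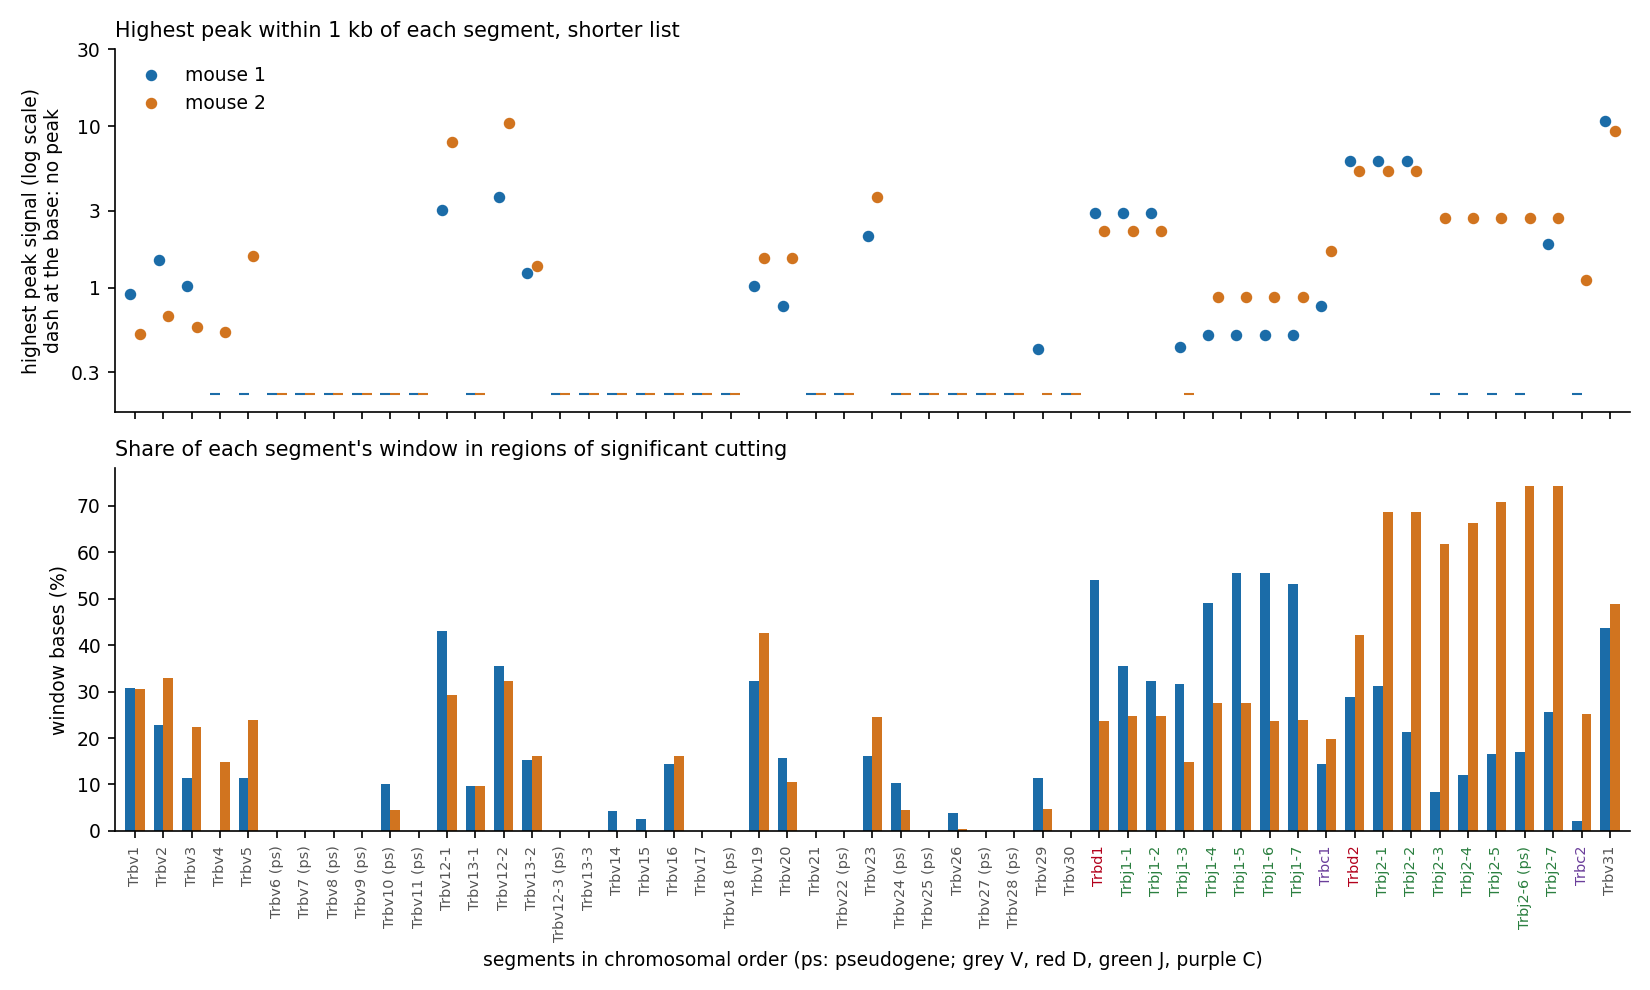
Accessibility at each of the 53 Trb segments in chromosomal order. The upper panel gives the highest signal of a shorter-list peak within 1 kb on a log scale, with a dash where the mouse had none. The lower panel gives the share of each window's bases in regions of significant cutting. V pseudogenes carry no points, and the J2 cluster has higher bars in mouse 2 than in mouse 1.

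Cutting at the V genes had a maximum at each end of the segment. Averaged over the 22 genes, the share of bases in regions of significant cutting was highest 10 bp before the start, at 55.5% in mouse 1 and 59.1% in mouse 2. It was 4.55% and 13.2% at 290 bp after the start. At the other end, where the recombination signal begins, it rose again to 38.4% and 40.9% at 50 bp past the end. For the 13 pseudogenes the value 10 bp before the start was 7.69% in each mouse, which is 1 pseudogene, Trbv24. Within 1 kb, 2 of the 13 pseudogenes (15.4%) had significant cutting in both mice, against 10.5% of all short genes, so the pseudogenes are near the background.

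**Figure D3:**
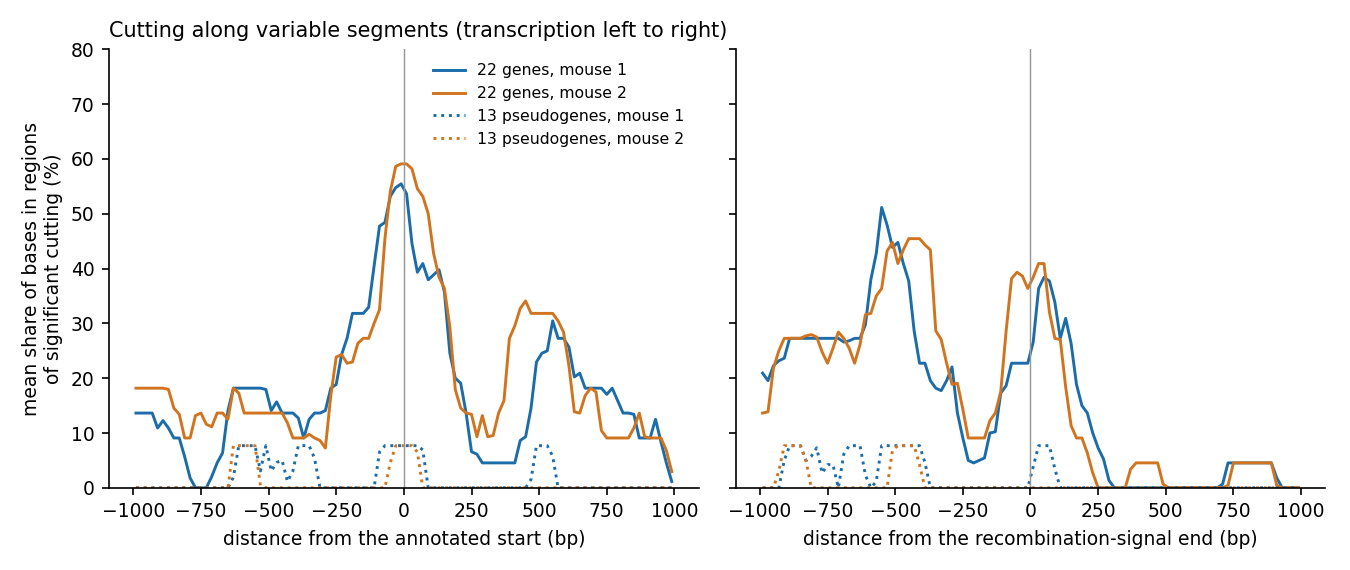
Cutting along V segments in bins of 20 bp, aligned at the annotated start (left) and at the end that carries the recombination signal (right). Lines are the mean share of bases in regions of significant cutting over 22 V genes (solid) or 13 V pseudogenes (dotted), for mouse 1 in blue and mouse 2 in orange. The genes peak just before the start and again past the end, and the pseudogenes reach at most 7.69%.

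Peaks followed the same places. A peak touching the 250 bp before the start was present in both mice at 7 V genes: Trbv1, Trbv12-1, Trbv12-2, Trbv19, Trbv20, Trbv23 and Trbv31. One touching the 250 bp past the end, where the recombination signal is, was present in both mice at 3: Trbv13-2, Trbv19 and Trbv31. At Trbv13-2 it was the only peak of the shorter list in the window, and that peak is at the signal and not at the start. Trbv19 and Trbv31 had both kinds.

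A V segment carries a signal of a heptamer, a spacer of 23 bases and a nonamer, for which the best known letters are CACAGTG and ACAAAAACC. The letters were read at fixed positions from the annotated end of each segment, without a search, so a signal set off by a few bases is marked out of place. Of the 22 V genes, 8 had the heptamer with all 7 letters and 21 had its first 3, CAC. None of the 13 pseudogenes had all 7 letters, and 10 had the first 3. These counts hold for the fixed positions alone. At the pseudogene Trbv8, counted without CAC, the bases read are ACCACAGAG, which hold CACAGAG further on. At the gene Trbv3, also counted without CAC, ACACAAACT lies before the assumed place of the nonamer. The signals shown, with heptamer and nonamer in capitals, are those of Trbv1, where both match fully, of the 3 genes with a peak at the signal in both mice, and of Trbv13-3, which has no cutting.
Trbv1 (chr6:40891886-40891924, plus strand): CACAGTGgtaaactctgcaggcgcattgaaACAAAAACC
Trbv13-2 (chr6:41121833-41121871, plus strand): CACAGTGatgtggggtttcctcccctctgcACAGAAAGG
Trbv19 (chr6:41179049-41179087, plus strand): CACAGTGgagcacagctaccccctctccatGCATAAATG
Trbv31 (chr6:41557652-41557690, minus strand): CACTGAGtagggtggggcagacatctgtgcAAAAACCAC
Trbv13-3 (chr6:41130586-41130624, plus strand): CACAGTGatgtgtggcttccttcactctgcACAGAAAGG
Full heptamers were present in open and in closed genes. The heptamer matched fully in 4 of the 9 V genes with a shared peak and in 4 of the 13 without. Trbv13-3 has the full heptamer and the same nonamer as Trbv13-2, and Trbv31 has neither in full at the positions read. The printed Trbv31 bases hold GCAAAAACC, which differs from ACAAAAACC in the first letter alone and begins before the marked nonamer. The capitals of Trbv31 may thus not mark its true signal.

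Both D segments were accessible at the bases before them in both mice. The signal was 6.06 in mouse 1 and 5.30 in mouse 2 at Trbd2, and 2.91 and 2.25 at Trbd1, where the known promoter lies. Trbd2 was higher than Trbd1 in each mouse, and the log2 ratios of mouse 2 to mouse 1 were -0.19 and -0.37. The peak centres lie 202 bp and 190 bp before the segments, and neither peak overlaps the segment itself. The 4 recombination signals of the D segments, 1 on each side of each, all touched regions of significant cutting in both mice. By the same count the signals of 6 of 22 V genes and 4 of 14 J segments did.

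The D segments are shown first with the bases before them, with capitals for footprints of both mice, and then between their signals, with capitals for heptamers and nonamers. The signal before a D segment reads on the opposite strand.
Trbd1 and upstream (chr6:41532913-41533212, plus strand): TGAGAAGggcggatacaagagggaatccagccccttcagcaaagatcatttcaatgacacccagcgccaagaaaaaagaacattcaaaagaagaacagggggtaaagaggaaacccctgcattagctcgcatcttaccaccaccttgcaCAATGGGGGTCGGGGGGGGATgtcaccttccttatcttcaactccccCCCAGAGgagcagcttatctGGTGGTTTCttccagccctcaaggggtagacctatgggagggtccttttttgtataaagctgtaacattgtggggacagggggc
Trbd2 and upstream (chr6:41541877-41542176, plus strand): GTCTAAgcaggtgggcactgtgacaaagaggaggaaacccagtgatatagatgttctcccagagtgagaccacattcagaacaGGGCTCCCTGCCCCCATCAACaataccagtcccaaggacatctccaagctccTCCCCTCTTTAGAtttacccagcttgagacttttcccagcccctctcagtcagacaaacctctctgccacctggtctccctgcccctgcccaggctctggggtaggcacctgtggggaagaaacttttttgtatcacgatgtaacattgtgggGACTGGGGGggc
Trbd1 with signals (chr6:41533173-41533251, plus strand): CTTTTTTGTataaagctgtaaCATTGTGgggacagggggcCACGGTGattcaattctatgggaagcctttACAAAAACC
Trbd2 with signals (chr6:41542135-41542215, plus strand): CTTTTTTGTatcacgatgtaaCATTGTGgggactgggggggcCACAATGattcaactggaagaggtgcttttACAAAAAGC
Both D segments have the same heptamer and nonamer on the upstream side, CACAATG and ACAAAAAAG on the strand on which they read. Footprints of both mice covered 44 of the 300 bases at Trbd1 and 49 of 300 at Trbd2. At Trbd1 the SP/KLF core GGGCGG touches footprints of both mice (6 of its 6 bases in mouse 1 and 1 in mouse 2), and of 2 GATA matches (AGATAA) none touched a footprint of both. At Trbd2 there are 3 matches of the E-box CAGGTG and 1 of the RUNX core TGTGGT, and none touched a footprint of both mice.

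The J segments, the short coding pieces to which D is joined, form a cluster of 7 behind each D segment. In the first cluster a peak lay within 1 kb of 7 segments in mouse 1 and of 6 in mouse 2. In the second it lay within 1 kb of 3 in mouse 1 and of 7 in mouse 2. With the longer list a peak lay within 1 kb of all 7 segments of each cluster in both mice. Regions of significant cutting covered a median of 49.0% of the windows of the first cluster in mouse 1 and 24.7% in mouse 2. In the second cluster the medians were 17.0% and 68.7%, so the clusters differed between the mice in opposite directions.

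The peaks behind these counts were few. Trbj1-1 and Trbj1-2 were reached by the Trbd1 peak in both mice, and Trbj2-1 and Trbj2-2 by the Trbd2 peak. Trbj1-4, Trbj1-5, Trbj1-6 and Trbj1-7 shared 1 peak over Trbj1-6, with a signal of 0.511 in mouse 1 and 0.872 in mouse 2. It is the only J segment with a peak on it in both mice. Trbj1-3 had a peak in mouse 1 alone (0.428).

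In the second cluster mouse 2 had a peak over Trbj2-5 and the pseudogene Trbj2-6 (chr6:41543441-41543720, signal 2.72). On the shorter list it was the strongest unshared peak of mouse 2 in the locus. Mouse 1 had no peak of the shorter list there, but on the longer list a peak of 1.39 overlapped the mouse 2 peak. Cutting in mouse 1 was significant, with a lowest FDR of 0.0059 in the Trbj2-5 window against 6.54e-17 in mouse 2. The strongest unshared peak of mouse 1 (chr6:41544764-41544898, signal 1.86) lies 974 bp past Trbj2-7, and mouse 2 had no cutting region over it. On the shorter list Trbj2-7 therefore counts in both mice without a common peak. The Trbj2-5 peak has 62.9% GC and the windows of the second cluster 50.1% to 51.6%, against 46.9% to 49.4% in the first. Over all 46907 pairs of shared peaks of the genome, the log2 ratio of mouse 2 to mouse 1 rose with GC content, from a median of 0.05 in the lowest of 5 GC groups to 1.42 in the highest. The part of GC content in the difference between the clusters was not tested.

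All 14 J segments start with CAC in the heptamer, on the side facing D, and 1, Trbj1-1, matches it in all 7 letters. All J windows are 100% unique.

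The constant genes, which encode the part of the chain that anchors it in the membrane, differed from each other. Trbc1 had 2 peaks in each mouse, both shared. Mouse 1 and mouse 2 had signals of 0.613 and 1.68 at the peak nearer its start, and of 0.766 and 0.826 at the other. On the shorter list Trbc2 had 0 peaks in mouse 1 and 3 in mouse 2, where the highest signal was 1.12. On the longer list mouse 1 had a peak of 1.21 at Trbc2, with 100% unique words, which overlapped that peak of mouse 2. Significant cutting covered 14.4% and 19.7% of the Trbc1 window and 2.21% and 25.1% of the Trbc2 window. Trbc1 and Trbc2 are near-identical copies: only 28% of the words of the Trbc1 peak nearer the start and 45.0% of those of 1 Trbc2 peak are unique, so these values are uncertain. The other Trbc1 peak is 100% unique.

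The strongest accessible site of the locus was in the interval between Trbc2 and Trbv31, which contains the known enhancer. This peak had a signal of 18.1 in mouse 1 and 10.8 in mouse 2, a mean of 14.4 ± 5.16 (SD, n = 2), higher than 93.0% of all shared pairs of the genome. It lies 3180 bp from Trbv31. A further shared peak, 4150 bp from Trbv31, had signals of 7.95 and 2.12. On the shorter list both mice had these 2 peaks and no other in the interval, and both peaks were higher in mouse 1. Both are shown, with capitals for bases in footprints of both mice, because the strongest site of the locus and the site that differs most between the mice are here.
strongest peak of the interval (chr6:41554361-41554660, plus strand): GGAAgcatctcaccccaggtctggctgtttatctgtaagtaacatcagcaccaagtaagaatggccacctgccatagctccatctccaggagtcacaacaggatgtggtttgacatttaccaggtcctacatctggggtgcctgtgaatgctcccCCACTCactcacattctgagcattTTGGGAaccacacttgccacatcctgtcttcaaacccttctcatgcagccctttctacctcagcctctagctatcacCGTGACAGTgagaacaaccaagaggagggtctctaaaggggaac
upstream peak of the interval (chr6:41553421-41553660, plus strand): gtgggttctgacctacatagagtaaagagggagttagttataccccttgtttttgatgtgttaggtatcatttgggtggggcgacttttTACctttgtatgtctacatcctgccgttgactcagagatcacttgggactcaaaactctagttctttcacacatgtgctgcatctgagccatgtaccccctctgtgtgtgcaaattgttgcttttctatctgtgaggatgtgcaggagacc
The strongest peak holds 2 matches of the RUNX core TGTGGT, 1 of the E-box CAGGTG and 1 of AGATAA. Both RUNX matches and the E-box touch a footprint in mouse 2, the RUNX matches with only 1 and 2 bases and the E-box with 5. None of the 4 matches touches one in mouse 1. RUNX, GATA and E-box proteins are among the known regulators of the enhancer in this interval. Sites that differ from the searched letters, those of ETS factors included, were not looked for. Footprints of both mice covered 25 of the 300 bases of the strongest peak and 3 of 240 in the upstream peak.

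Relative to the rest of the genome, the peaks of the interval leaned towards mouse 1. The log2 ratio of mouse 2 to mouse 1 was -0.75 at the strongest peak and -1.91 at the upstream one, while the median over the 46907 shared pairs of the genome was 0.75. A lower ratio than -1.91 was found in 0.0981% of those pairs. Within the GC group of that peak, where the median was 0.05, it was found in 0.516%. Over the 27 shared pairs of the locus and 50 kb on either side the median was 0.16, and 12 pairs (44.4%) were lower in mouse 2, against 18.5% in the genome. Against the median of its own GC group, 14 of the 27 pairs lay below, so by that measure the locus divides about evenly. These are ratios of single libraries, and mouse and library cannot be told apart.

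**Figure D4:**
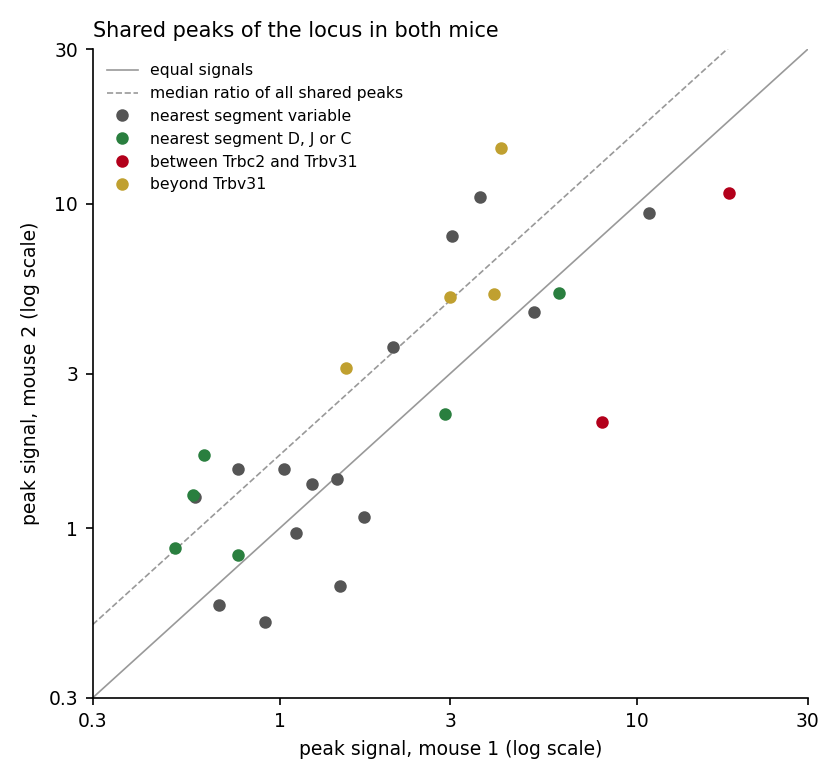
Signals of the 27 shared peaks of the locus and 50 kb on either side in mouse 1 (horizontal, log scale) and mouse 2 (vertical, log scale), each point 1 peak. The solid line marks equal signals and the broken line the median ratio of all shared peaks of the genome. Both peaks between Trbc2 and Trbv31 lie below the line of equal signals, and the upstream peaks of Trbv12-1 and Trbv12-2 above the broken line.

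In all, 42 peaks lay in the locus and its 50 kb flanks in each mouse. Of these, 27 in mouse 1 (64.3%) and 29 in mouse 2 (69.0%) overlapped a peak of the other mouse. In the whole genome, the shorter lists of 59484 peaks in mouse 1 and 72913 in mouse 2 formed 46907 shared pairs. Of the unshared peaks of the locus and its flanks, 8 in mouse 1 and 5 in mouse 2 met no cutting region of the other mouse. The share of such peaks in the whole genome was not counted, so no difference between locus and genome is claimed. Of the 27 shared pairs, 23 lie at or between the segments. The others lie beyond Trbv31: 1 at 1138 bp before its start, with signals of 3.98 and 5.27, and 3 near Ephb6, the next gene and no member of the receptor family. The strongest of those, over the start of Ephb6, had signals of 4.15 and 14.9 at 75.0% GC, and the next 2.99 and 5.18.

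Other genes inside the span of the locus had few peaks. Of 28 such genes 14 are protein-coding, trypsinogen genes included, and 0 of these had a peak within 1 kb of the gene in either mouse. Of the others, 3 had one: 5830405F06Rik in mouse 2, with 5 peaks that include those of Trbv4 and Trbv5, Gm29813 in mouse 1, and Gm38018 in both (0.574 and 1.27). The Gm38018 peak lies 27650 bp before Trbd1 and is the only shared peak in the stretch between Trbv30 and Trbd1. Several trypsinogen genes have few unique words (35.8% for Prss3 and 43.1% for Prss1), which limits what can be seen there, while Prss2, next to Trbd1, has 95.5%.

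Motif matches at the shared peaks of the locus were set beside those at all peaks, in windows of 300 bp around each peak centre and on both strands. The CREB/ATF letters TGACNTCA were present in 26.1% of the 23 locus peaks, against 6.00% of all peaks in mouse 1 and 5.45% in mouse 2. All 6 windows lie at V genes (Trbv2, Trbv12-1, Trbv12-2, Trbv20 and Trbv23), Trbv12-1 counting with both its peaks. In the upstream window of Trbv12-1 the match lies outside the peak, and at Trbv20 it reaches past the peak's end. The start windows of the related Trbv12-1 and Trbv12-2 hold the same matches, TGACCTCA and TGACATCA, so the windows are not all separate cases. The heptamer CACAGTG was in 30.4% (8.38% and 8.62% of all peaks) and AGATAA in 21.7% (9.63% and 8.69%). Only in the windows of Trbv13-2 and Trbv19 did a heptamer match lie at the recombination signal of a segment. The SP/KLF letters GGGCGG, common at CpG-rich promoters, were in 4.35% against 30.5% and 30.9%. RUNX letters TGTGGT were in 30.4%, near the 24.1% and 22.3% of all peaks, and CTCF letters in 8.70% against 9.83% and 11.8%. TCF/LEF letters CTTTGA were in 8.70% against 19.1% and 16.5%, and ETS letters GGAAGT in 21.7% against 28.2% and 25.2%. The E-box CAGGTG was in 34.8% (31.5% and 31.3% of all peaks), the E-box CAGCTG in 13.0% (22.8% and 23.2%) and the nonamer ACAAAAACC in 4.35% (0.489% and 0.417%). The window with the nonamer belongs to a peak 1564 bp from Trbv14. The heptamer and TGTGGT can overlap by their shared TGTG, and windows of neighbouring peaks can hold the same match. With 23 peaks, 1 peak is 4.35%, and a match is a description of letters and not a bound site.

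Most genes of a list for making, regulating and reading out the receptor were open in the same libraries. Of 20 such pathway genes, 18 had a peak within 1 kb of the gene start in both mice, against 51.7% of all protein-coding genes. Rag1, Ptcra, Cd3e, Cd3g, Lck and Bcl11b were already counted in the thymocyte list above, so the lists are not separate results. The list also holds Ctcf and Rad21, which are not particular to the receptor. Rag2, a recombinase gene, had signals of 7.38 in mouse 1 and 8.49 in mouse 2, and Dntt, which adds bases at the joints, had 2.20 and 2.37. Ptcra, which encodes the partner of the beta chain before an alpha chain is made, had 4.29 and 7.33, and Cd3g, a signalling subunit, 10.8 and 19.3. No peak lay at the annotated start of Notch1 or Ets1, both regulators of early T cells, in either mouse.

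The variable segments of other receptor loci were counted in the same way. A peak within 1 kb in both mice was found at 10 of 35 Trbv segments (28.6%), 52 of 134 Trav and Trdv segments (38.8%) of the alpha and delta chains, and 35 of 183 Ighv segments (19.1%) of the antibody heavy chain. At the 160 Igkv segments of the kappa light chain, it was found at 0. Among pseudogenes alone the counts were 0 of 13 for Trbv, 5 of 21 for Trav and Trdv and 9 of 70 for Ighv. The differences between loci were not tested.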

How the data were processed

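DNase-seq was done on thymus tissue of 2 mice, with 1 library each. Per the labels and the text deposited with the files, coordinates are mm10, peaks and cut rates derive from the filtered alignments of 1 library at a time, and footprints from both of these inputs, cut rates and alignments. For the aligner, the peak and footprint callers and the thresholds, names were not given in the sources used here. The deposited peak signal has no named scale in the sources used here. It was taken as a height set to the depth of each library, since its values are whole multiples of 0.00638 in mouse 1 and 0.00504 in mouse 2 (100% within 0.1 steps). The p-value column that the authors deposited with the cut rates is an FDR, listed below 0.05. The other deposited column, of the footprints, is constant, so only positions were used.

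The shorter of the 2 peak lists of a library (59484 and 72913 peaks) was used, and the longer one (93107 and 117361) as an alternative. Adjoining entries of the cut rates were joined into 175838 and 187681 regions of significant cutting. Intervals counted as overlapping from 1 bp. Unique 32-base words were counted on both strands of the GRCm38 reference. Overlap and word counts were tested on simulated data. Python 3.11.15, numpy 2.4.6, pandas 2.3.3 and Biopython 1.88 were used, and figures were drawn with matplotlib 3.10.9. Gene models came from GENCODE M21 and sequences from the GRCm38 genome of RefSeq. Strand and position of each motif came from exact matches of its letters. Recombination signals beside segments were instead read at fixed positions from the annotated segment ends.

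Segments were named when both mice had a peak within 1 kb. All D and C segments, Trbv1, Trbv31, the first 3 V genes without cutting, the 10 strongest shared peaks and the strongest unshared peak of each mouse were named too, and so were genes in the locus with a peak. Genes with a peak in 1 mouse, the 2 pseudogenes with a longer-list peak and the examples of the pathway and marker lists were named after their values were seen. The members, lists and alternatives were chosen with earlier results of these data known. No test was made, because there is 1 group. A gene of the marker lists is not reported here and was left out of its list's count.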

Additional observations from a re-analysis of the deposited data

How the results depend on the processing

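Counts of segments moved with how a site was defined. With the longer peak list 34 Trb segments and 16 Trbv segments had a peak within 1 kb in both mice, in place of 22 and 10, and with the stronger 50% of peaks 11 and 4 did. With a flank of 5 kb the counts were 34 and 16, and with no flank 9 Trb segments had a peak, 22 (in place of 35) touched significant cutting and 10 (in place of 31) a footprint. Regions with an FDR of at most 0.001 were touched by 23 segments. In each mouse alone the counts were 24 to 29 Trb and 11 to 12 Trbv segments, 36 to 37 with cutting and 34 with a footprint. The locus and its flanks held a mean of 42 peaks per mouse, 76.5 with the longer list and 19.5 with the stronger 50%. Mouse 1 peaks shared with mouse 2 numbered 27, then 49 and 13 under these lists. Of the V pseudogenes, 2 had a peak in both mice with the longer list, 3 with the flank of 5 kb, and 0 with the stronger 50% or with no flank. Requiring the peaks of the mice to overlap, an alternative added after the data were seen, gave 20 Trb and 9 Trbv segments. No paired analysis was possible because there is 1 group. With 2 libraries the spread between mice is known from a single difference.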
